A study of Mus musculus with 48 samples.

Results

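Liver RNA was compared between male mice whose dams had received a diet low in selenium and folate and male mice whose dams had received the supplemented diet, all of them on the supplemented diet after weaning. These are the groups LH and HH, where the first letter is the diet of the dam (from before mating to the end of lactation) and the second is the diet of the offspring from weaning to 12 weeks of age. Selenium was at 0.44 mg/kg in diet H and at 0.08 mg/kg in diet L, folate was at 2.4 mg/kg in H and at 0.4 mg/kg in L, and both were high-fat diets. The members are the 12 liver arrays of HH and LH among 48 arrays of liver and colon. The 6 HH arrays came from 5 mice, because 1 animal number appears on a pair of arrays, which were averaged, and the 6 LH arrays came from 6 mice. The mice were of the C57/BL6 strain and were fasted and then re-fed before sampling. The labels do not give litters, so mice of a group may share a dam, and p-values measure the spread between mice and not between litters. In the main fit this spread was estimated over the mice of all liver groups, HL and LL included.

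The liver makes most plasma proteins. Their chains enter the endoplasmic reticulum (ER) through the translocon, are glycosylated and folded by chaperones and disulfide isomerases, and leave in coated vesicles, and when folding falls behind, the unfolded protein response raises the expression of this machinery. Selenium is built into selenoproteins as selenocysteine, and folate carries the carbon units used for nucleotides and for methyl groups. Many liver genes also follow the time of day and the last meal.

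Each value is the log2 ratio of mouse (Cy3) over a common reference RNA (Cy5) for 1 probe per gene, the probe with the highest mean intensity, and a difference is LH minus HH on that scale. The mice are named HH1 to HH5 and LH1 to LH6. In Cy3, 55.3% to 66% of the spots of these arrays were well above background. All 16 hepatocyte markers tested were well above background in all 11 mice, as were 17 of 17 markers of macrophages, 18 of 18 of stellate cells and 13 of 13 of skeletal muscle, whereas *Elane*, *Ngp* and *Cxcr2* of the neutrophil list were above background in none. Of 17 pancreas markers 15 were above background in all 11 mice. A signal above background does not mean a high level. The mean log ratio over the muscle markers was -4.36 to -3.76 in HH and -4.17 to -3.85 in LH. Over the hepatocyte markers it was 1.17 to 1.61 in HH and 1.54 to 1.95 in LH. In bulk tissue, fewer cells of a type and less RNA per cell cannot be told apart.

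The mouse HH3 stood apart from the others on both of its arrays. On the second principal component of the 24 liver arrays, which held 15.1% of the variance, its arrays scored 57.4 and 53.5, and the other 22 arrays lay between -16.9 and 7.51. Within HH, the deviations of its arrays from the group mean correlated at r = 0.806 over probes, against at most 0.265 for any other pair of HH arrays. The level of *Trem2*, a receptor of lipid-associated macrophages, was 2.26 in HH3 and -1.40 to -1.05 in the other HH mice. *Hsd3b5*, a male-biased steroid enzyme of the liver, was at -3.34 in HH3 and at -0.01 to 0.94 in the others. The mean log ratio over the macrophage markers was 1.97 in HH3, at most 1.49 in the other HH mice and 0.58 to 1.42 in LH. Other marker lists stood apart too. The mean over stellate markers was -0.38 in HH3, at most -1.07 in the other HH mice and at most -0.94 in LH. The summed Cy3 signal of cholangiocyte markers was 14990 in HH3, at most 7589 in the other HH mice and at most 9021 in LH. By mean log ratio the cholangiocyte markers were at -2.13 in HH3, at most -2.27 in the other HH mice and at most -2.22 in LH. The summed Cy3 signal of endothelial markers was 19931 in HH3, below the highest other HH mouse at 22089. Their mean log ratio was 1.06 in HH3, at most 1.03 in the other HH mice and at most 0.98 in LH. Counts are therefore given with and without HH3.

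**Figure D1:**
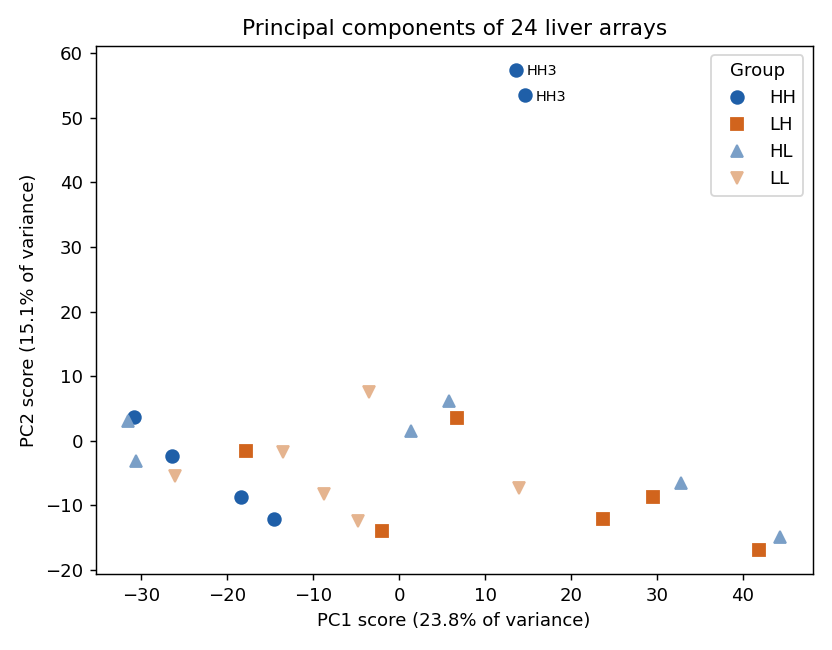
Scores of the 24 liver arrays on the first principal component (horizontal axis, 23.8% of the variance) and the second (vertical axis, 15.1%), with 1 point per array and a symbol per diet group. The arrays of HH3 lie at 57.4 and 53.5 on the vertical axis, above the other 22 arrays.

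No probe passed the threshold of a fold change over 1.5 with an adjusted p under 0.05. In the limma fit 0 of 41171 probes were called (0%), and the lowest Benjamini-Hochberg adjusted p was 0.123. At an unadjusted p under 0.05 there were 4910 probes (11.9%), 2397 higher and 2513 lower in LH, and 578 of them also differed by over 1.5-fold. Of 18433 named genes, 1083 were higher (5.88%) and 1453 were lower (7.88%) in LH at that level, and the median difference over all of them was -0.02. Without HH3 these shares were 6.37% and 8.33%. With slide as a fixed term in the fit, 1391 of the 18433 named genes were higher and 1816 lower. The groups did not overlap, with every LH mouse above every HH mouse, for 152 genes (0.825%), and with every LH mouse below for 214 genes (1.16%). Since nothing passed the adjusted threshold, "higher" and "lower" below describe values and counts at an unadjusted p under 0.05. A fit of only the HH and LH mice called 17 probes, among them probes of *Ndufb4*, *Tomm5*, *Cox7a2*, *Slc10a1*, *Pdzk1*, *Shmt1* and *Pdia6*.

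**Figure D2:**
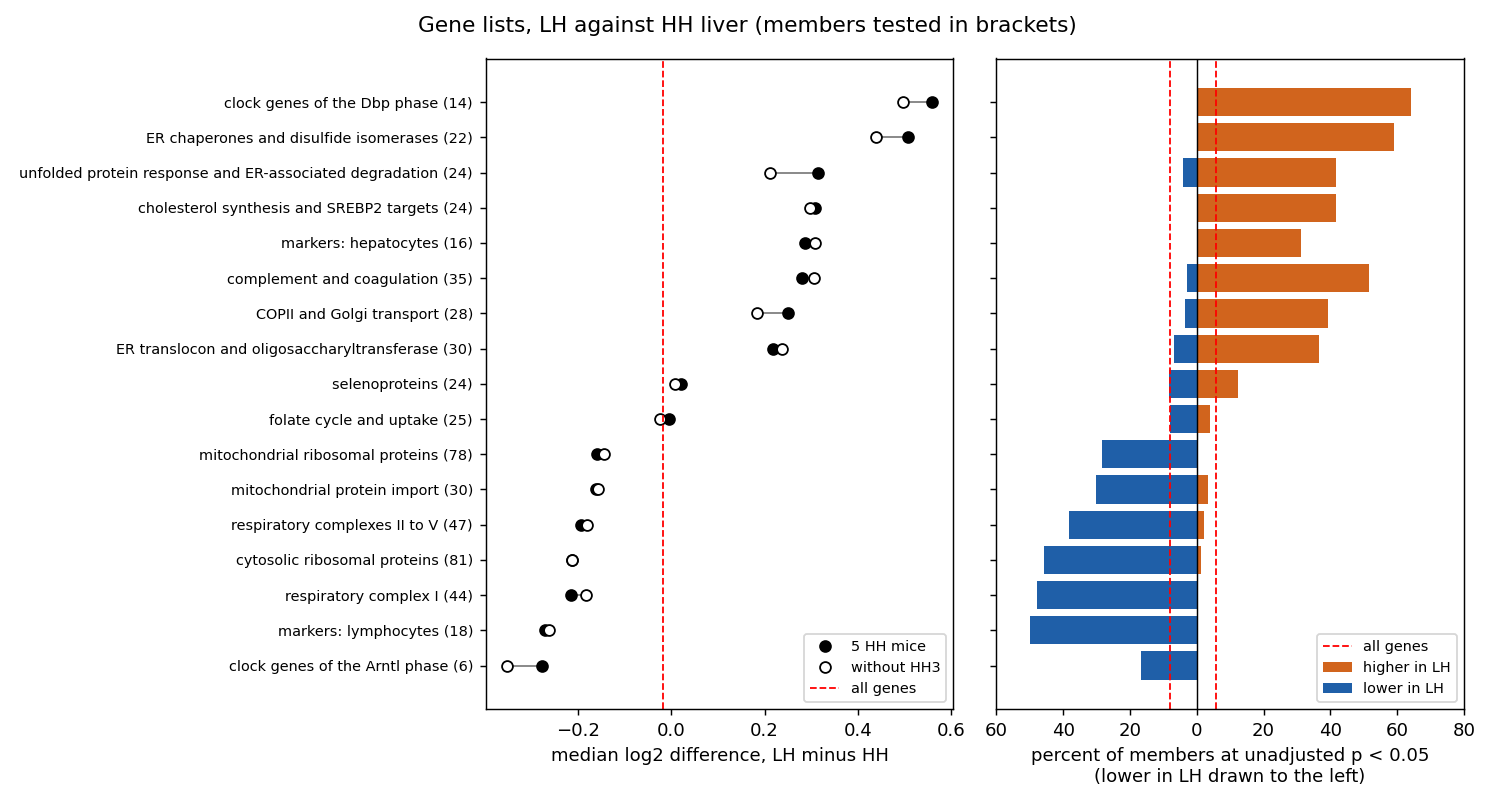
Gene lists ordered by their median log2 difference (left panel, LH minus HH, with filled points for all 5 HH mice and open points without HH3) and the percent of their members at an unadjusted p under 0.05 (right panel, higher in LH to the right and lower in LH to the left). Dashed lines mark all named genes at -0.02, 5.88% and 7.88%; ER chaperones lie at a median of 0.51 and cytosolic ribosomal proteins at -0.21.

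Genes of protein folding in the ER were higher in LH. Of 22 ER chaperones and disulfide isomerases tested, 13 were higher and 0 lower, with a median difference of 0.51, and without HH3 10 were higher and 0 lower, with a median of 0.44. *Hyou1*, a large chaperone of the ER lumen, was at -0.04, 0.16, -0.41, 0.50 and 0.55 in HH1 to HH5 and at 0.81 to 2.22 in LH, with a median of 1.42. The groups did not overlap, and LH was above HH on all 6 slides. Slides compare single arrays, here and below, and HH3 is the HH mouse on both slide 3 and slide 6, so the slides are not 6 independent pairs. The difference was 1.36 with a standard error of 0.37, or 2.57-fold, with a limma adjusted p of 0.225. *Pdia4*, a disulfide isomerase, was at 0.07, -0.20, -0.20, 0.35 and 0.53 in HH and at 0.72 to 1.68 in LH, with a median of 0.97. Its difference was 1.02 with a standard error of 0.33. *Canx* encodes calnexin, the membrane-bound lectin that holds glycoproteins during folding. It was at -0.49, -0.41, -0.93, -0.49 and -0.64 in HH and at -0.29 to 0.38 in LH, again without overlap, and all 3 of its probes were higher in LH. For *Pdia5* the difference was 0.62, and HH3 at 0.62 was the only HH mouse within the LH range, whose lowest mouse was at 0.42.

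The promoters of several of these genes carry the ER stress element, CCAAT and CCACG with 9 bases between them, read on both strands. In windows of 250 bases before and 50 after the start, taken from RefSeq on GRCm38.p6, 8 of 20 genes of the list with a window held it (40.0%), against 37 of 27025 genes overall (0.137%). Of the 8 genes with the element 6 were higher in LH, with differences of 0.34 to 0.79 and a median of 0.53. Of the 11 tested genes without it 5 were higher, with differences of -0.41 to 1.02 and a median of 0.35. *Hyou1* is in neither count. The share of promoters with a motif does not depend on the arrays and is no result about LH. The shorter motif TGACGTG was in 3 of the 20 genes (15.0%) and in 2.22% of all genes. A match describes letters and not a bound site. *Hspa5*, *Hsp90b1* and *Pdia6* were chosen for display by this element, after their values were seen. The windows follow, each read 5′ to 3′ on the strand of the gene, with the element in capitals.
Canx chr11:50325624-50325923 (-): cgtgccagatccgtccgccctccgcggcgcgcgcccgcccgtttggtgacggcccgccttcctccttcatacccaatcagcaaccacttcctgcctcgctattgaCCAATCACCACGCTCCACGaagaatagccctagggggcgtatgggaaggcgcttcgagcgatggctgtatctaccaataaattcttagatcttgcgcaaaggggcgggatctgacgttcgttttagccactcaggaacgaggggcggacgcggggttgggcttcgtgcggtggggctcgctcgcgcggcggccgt
Hspa5 chr2:34771840-34772139 (+): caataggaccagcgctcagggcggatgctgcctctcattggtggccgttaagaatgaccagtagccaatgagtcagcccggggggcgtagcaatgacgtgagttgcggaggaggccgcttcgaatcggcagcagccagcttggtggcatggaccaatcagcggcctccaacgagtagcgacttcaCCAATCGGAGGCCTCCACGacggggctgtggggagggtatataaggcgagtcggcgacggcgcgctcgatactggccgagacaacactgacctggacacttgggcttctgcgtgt
Hsp90b1 chr10:86705395-86705694 (-): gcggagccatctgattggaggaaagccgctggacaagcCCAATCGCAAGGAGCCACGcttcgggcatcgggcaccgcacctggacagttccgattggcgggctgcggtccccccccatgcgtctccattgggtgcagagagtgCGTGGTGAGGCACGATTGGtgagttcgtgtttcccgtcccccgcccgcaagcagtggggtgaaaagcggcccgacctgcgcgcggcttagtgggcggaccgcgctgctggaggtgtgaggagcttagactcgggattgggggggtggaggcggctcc
Pdia6 chr12:17266339-17266638 (+): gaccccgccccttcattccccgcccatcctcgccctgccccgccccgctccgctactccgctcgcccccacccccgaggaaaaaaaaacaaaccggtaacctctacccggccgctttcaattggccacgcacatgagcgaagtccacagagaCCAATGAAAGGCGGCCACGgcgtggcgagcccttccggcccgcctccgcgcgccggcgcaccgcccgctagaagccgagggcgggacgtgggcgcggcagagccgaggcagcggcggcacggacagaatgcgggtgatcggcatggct

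*Hspa5* encodes the main ER Hsp70 chaperone and *Hsp90b1* the ER Hsp90. *Hspa5* was at 0.15, 0.09, -0.06, 0.29 and 0.92 in HH and at 0.11 to 1.21 in LH. The groups overlapped, and its difference of 0.44 had an unadjusted p of 0.09 in the limma fit. *Hsp90b1* differed by 0.68 with a standard error of 0.24, and HH5 at 0.56 lay within the LH range of 0.07 to 0.79. *Pdia6* differed by 0.53, with HH at -0.71 to -0.26 and LH at -0.38 to 0.38. All 3 of its probes were higher, by 0.39 to 1.17, and the highest was called in the fit of only the HH and LH mice.

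**Figure D3:**
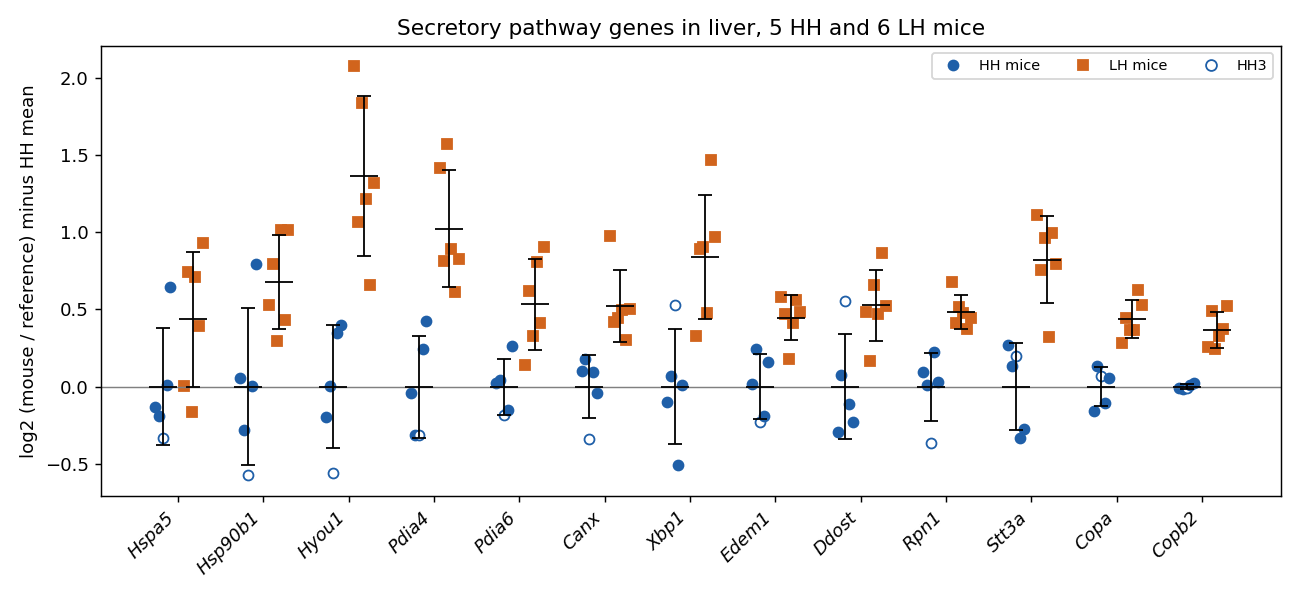
Log2 ratio of mouse over reference minus the HH mean (vertical axis) for 13 genes of the secretory pathway (horizontal axis), with 1 point per mouse, HH in blue circles with HH3 open and LH in orange squares; bars are the mean and SD. For *Hyou1*, *Pdia4*, *Canx*, *Rpn1*, *Stt3a*, *Copa* and *Copb2* every LH mouse lies above every HH mouse, whereas *Hspa5* overlaps.

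The steps around folding moved the same way by their counts. Of 24 genes of the unfolded protein response and of ER-associated degradation, 10 were higher and 1 lower, with a median of 0.31, and without HH3 8 were higher and 0 lower. Without HH1 the count was 6 higher. *Xbp1*, a transcription factor of this response, was at -0.66, -0.49, -0.03, -1.06 and -0.55 in HH and at -0.23 to 0.91 in LH, with a median of 0.34. HH3 lay within the LH range, and the difference of 0.84 (1.79-fold) was 0.97 without it. *Edem1* and *Os9*, which select misfolded glycoproteins for removal, differed by 0.45 and 0.34. Of 30 genes of the translocon and the oligosaccharyltransferase, 11 were higher and 2 lower, with a median of 0.22, and 12 and 2 without HH3. *Stt3a*, a catalytic subunit of the transferase, was at -0.44, -0.58, -0.51, -1.04 and -0.98 in HH and at -0.39 to 0.40 in LH, with a difference of 0.82. The subunit genes *Rpn1* and *Ddost* differed by 0.48 and 0.53. Of 28 genes of COPII and Golgi transport, 11 were higher and 1 lower, with a median of 0.25, and 11 and 0 without HH3. *Copb2*, a coatomer subunit, was at -0.49, -0.49, -0.49, -0.47 and -0.46 in HH and at -0.23 to 0.04 in LH, and *Copa* and *Arcn1*, further coatomer subunits, differed by 0.44 and 0.73.

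Genes of secreted plasma proteins were also higher. Of 35 complement and coagulation genes, 18 were higher and 1 lower in LH, with a median of 0.28, and without HH3 the counts were 17 and 1. *Klkb1*, plasma prekallikrein, was at 1.43, 2.10, 1.70, 1.31 and 1.51 in HH and at 2.11 to 3.49 in LH, with a median of 2.53. The groups were adjacent but did not overlap, and the difference was 1.04 (2.05-fold). *Fga* and *Fgb*, chains of fibrinogen, differed by 0.84 and 0.52, and *Serpinf2*, the plasmin inhibitor, by 0.52, each without overlap. *F2*, prothrombin, differed by 0.44, and HH2 at 2.21 lay within the LH range of 2.19 to 2.39. Acute phase genes were mixed, with 6 higher and 4 lower among 25 (7 and 4 without HH3). *Crp* was higher by 0.37, whereas *Orm2*, an orosomucoid, was at 2.95, 2.36, 3.15, 3.26 and 2.97 in HH and at 2.30 to 2.63 in LH, a difference of -0.53 in which HH2 lay among the LH mice. Of the 16 hepatocyte markers, 5 were higher and 0 lower, with a median of 0.29 (8 and 0 without HH3). Their summed Cy3 signal was 1335900 to 1790210 in HH and 1581880 to 1805860 in LH. Their part in the other differences was not tested.

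Genes of mitochondria and of ribosomes were lower in LH. Respiratory complex I, the entry point of the electron transport chain, had 21 of 44 genes lower and 0 higher, with a median of -0.21, and the same counts without HH3. Complexes II to V had 18 of 47 lower and 1 higher, with a median of -0.19, and 20 lower and 4 higher without HH3. Mitochondrial protein import had 9 of 30 lower and 1 higher (10 and 1 without HH3), and mitochondrial ribosomal proteins had 22 of 78 lower and 0 higher (24 and 0 without HH3). Cytosolic ribosomal proteins had 37 of 81 lower and 1 higher, with a median of -0.21, and 32 and 1 without HH3. These counts depended on the normalization within arrays. With median centring in place of loess, 15 cytosolic and 8 mitochondrial ribosomal protein genes, 8 of complex I, 11 of complexes II to V and 5 of import were lower, and the medians lay between -0.16 and -0.03. In that setting the median of all named genes was -0.03, the same as for mitochondrial ribosomal proteins and import. Over all 41171 probes, 2931 were then higher and 2299 lower at an unadjusted p under 0.05, against 2397 and 2513 with loess.

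*Tomm5*, a small subunit of the import pore of the outer membrane, had the lowest p of the named genes. It was at -0.07, -0.26, -0.20, 0.06 and -0.13 in HH and at -0.86 to -0.55 in LH, with a median of -0.73. The difference was -0.61 with a standard error of 0.10, with a limma adjusted p of 0.123, and LH was below HH on all 6 slides. *Ndufb4*, an accessory subunit of complex I, was at 0.06, 0.22, 0.30, 0.37 and 0.48 in HH and at -0.46 to -0.28 in LH. The difference was -0.64, and the highest LH mouse, at -0.28, lay below the lowest HH mouse, at 0.06. *Atp5e*, a subunit of the ATP synthase, was at -0.01, -0.17, 0.17, 0.45 and -0.03 in HH and at -0.78 to -0.45 in LH, a difference of -0.68. *Cox7a2*, a subunit of cytochrome c oxidase, was at 0.39 to 0.79 in HH and at -0.51 to 0.01 in LH, and both of its probes were lower. *Timm10*, *Ndufa7* and *Atp5j2* differed by -0.58, -0.52 and -0.48, each without overlap.

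Among ribosomal protein genes, *Rpl41* was at -0.37, -0.37, -0.03, 0.03 and -0.37 in HH and at -0.87 to -0.68 in LH, a difference of -0.55 with a standard error of 0.11. *Rpl34* and *Rps25* differed by -0.47 and -0.44, without overlap and with both probes of each lower. *Mrps17* and *Mrps24* of the mitochondrial small subunit differed by -0.34 and -0.36, and *Mrpl54* of the large subunit by -0.45. *Rmrp*, the RNA of the RNase that processes ribosomal RNA, was at 1.68, 1.36, 1.20, 2.63 and 2.13 in HH and at -0.15 to 0.91 in LH. Its difference of -1.25 (2.38-fold) was among the largest without overlap.

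**Figure D4:**
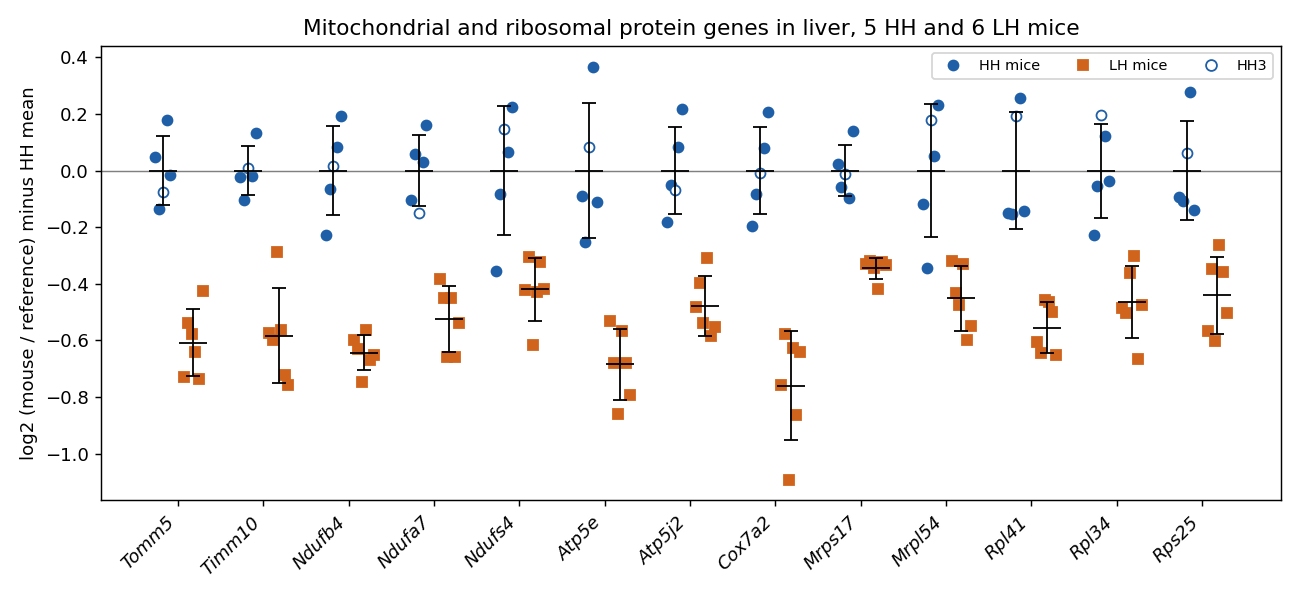
Log2 ratio of mouse over reference minus the HH mean (vertical axis) for 13 genes of mitochondria and ribosomes (horizontal axis), with 1 point per mouse, HH in blue circles with HH3 open and LH in orange squares; bars are the mean and SD. LH lies below HH without overlap for all but *Ndufs4* and *Mrpl54*.

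Clock genes of the *Dbp* phase were higher in LH by their counts. Genes that peak with *Dbp* numbered 9 higher and 0 lower of 14, with a median of 0.56, and without HH3 5 were higher and 0 lower, with a median of 0.50. *Dbp*, a transcription factor driven by the clock and named here after its values were seen, was at 0.35, 2.75, -1.04, -0.91 and 1.71 in HH and at 0.56 to 2.65 in LH, with a median of 2.56. HH2 lay above every LH mouse, HH5 lay within the LH range, and HH1, HH3 and HH4 lay below all of the LH mice. *Tef*, a relative of *Dbp*, was at -0.06, 1.00, -1.64, -0.80 and 0.35 in HH and at 0.24 to 1.47 in LH, a difference of 1.09, or 0.74 without HH3. *Ciart*, a repressor of the clock, was at 0.65, 1.87, 0.04, 0.08 and 1.56 in HH and at 0.96 to 3.27 in LH, a difference of 1.53, and it was well above background in 3 HH mice. In the opposite phase 1 of 6 genes was lower and 0 higher, with a median of -0.28. Without HH3 2 were lower, and with median centring 0 were. *Clock* showed a difference of -0.45, with its 3 probes at -0.45 to -0.0004. *Arntl*, its partner, was at -1.17 to 0.30 in HH and at -1.61 to 0.25 in LH, with an unadjusted p of 0.088 in the limma fit. The period genes *Per1*, *Per2* and *Per3* and the repressor *Nr1d1*, named after their values were seen, differed by 0.79, 0.33, 0.66 and 0.54, and all of them overlapped between the groups. *Per3* was well above background in 1 HH mouse and in 5 LH mice. The labels used here give no time of sampling for each mouse, so time of day and diet cannot be told apart.

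**Figure D5:**
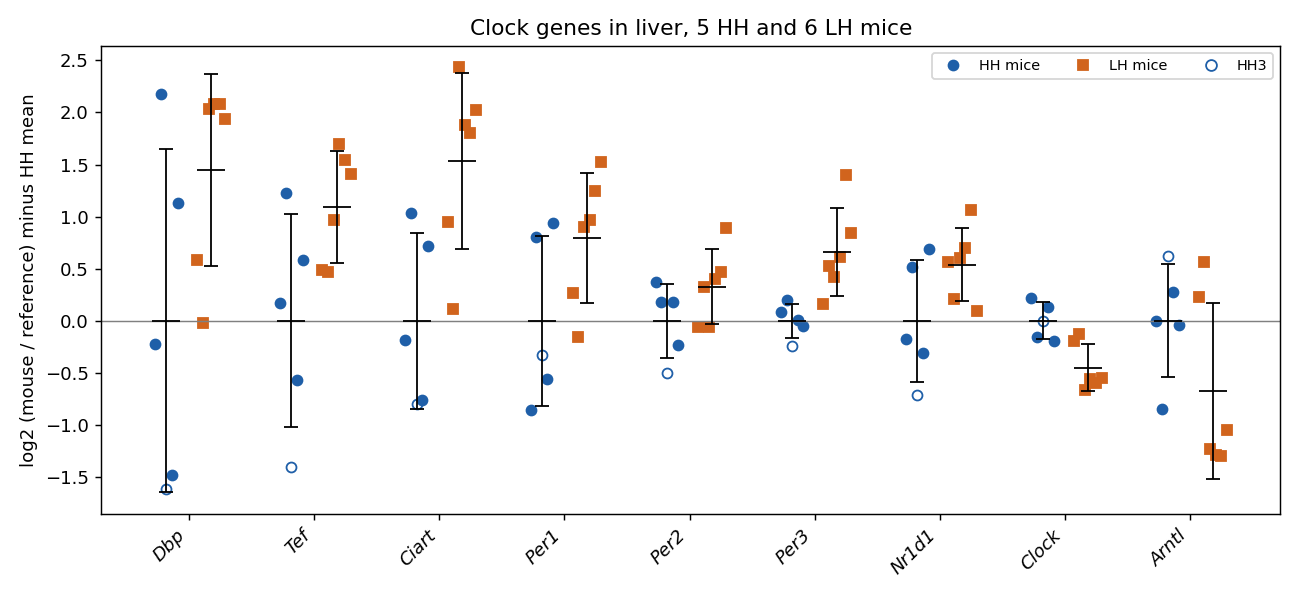
Log2 ratio of mouse over reference minus the HH mean (vertical axis) for 9 clock genes (horizontal axis), with 1 point per mouse, HH in blue circles with HH3 open and LH in orange squares; bars are the mean and SD. The HH mice spread widely for *Dbp*, from -1.04 to 2.75 before the mean is taken off, and all genes shown overlap between the groups.

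The E-box CACGTG, which the clock factors bind, was in 4 of 11 genes of the *Dbp* list with a promoter window (36.4%) and in 8.09% of all genes, and the D-box, TTATGTAA or TTACGTAA, was in 1 of 11 (9.09%) and in 1.23%. Both were read on both strands. The windows of *Tef* and *Ciart*, the members of that list named by the rule, follow with each E-box in capitals.
Tef chr15:81802423-81802722 (+): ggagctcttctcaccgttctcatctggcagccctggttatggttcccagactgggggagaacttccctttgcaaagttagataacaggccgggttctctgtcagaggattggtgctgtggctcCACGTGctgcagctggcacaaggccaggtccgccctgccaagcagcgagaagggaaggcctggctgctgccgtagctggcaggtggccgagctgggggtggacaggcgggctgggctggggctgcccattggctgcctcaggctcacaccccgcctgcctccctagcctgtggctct
Ciart chr3:95882179-95882478 (-): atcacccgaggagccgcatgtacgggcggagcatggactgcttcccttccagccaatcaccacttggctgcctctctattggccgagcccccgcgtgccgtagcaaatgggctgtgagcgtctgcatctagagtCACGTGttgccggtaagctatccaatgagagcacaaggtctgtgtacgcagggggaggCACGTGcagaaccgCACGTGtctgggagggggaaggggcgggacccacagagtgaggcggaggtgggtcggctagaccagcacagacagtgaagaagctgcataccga

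Selenoprotein genes did not move together. Of 24 tested, 3 were higher (12.5%) and 2 lower (8.33%) in LH, with a median of 0.02. Without HH3 the counts were again 3 and 2, without HH2 6 were higher, and with median centring 5 were higher and 1 lower. *Gpx4*, which reduces lipid hydroperoxides in membranes, was at -0.11, 0.13, 0.77, 0.55 and 0.57 in HH and at -0.42 to -0.05 in LH, with a median of -0.22. Only HH1 lay within the LH range, the difference was -0.60 (1.52-fold) with a standard error of 0.13, and it was -0.50 without HH3. *Selenow* was lower as well, at -0.51 to -0.21 in HH and -1.06 to -0.41 in LH. *Txnrd3*, a thioredoxin reductase, was higher by 0.34. The major liver selenoproteins showed smaller differences, with *Gpx1* at -0.13, *Selenop*, which carries selenium in plasma, at -0.14, and *Txnrd1* at 0.16, at unadjusted limma p of 0.36, 0.50 and 0.32. Of the 9 genes that insert or recycle selenocysteine, *Sepsecs*, the last enzyme of its synthesis on the tRNA, was the one at an unadjusted p under 0.05, with a difference of 0.35.

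Of 25 folate genes 1 was higher and 2 were lower, with a median of -0.01, and without HH3 1 was higher and 1 lower, whereas with median centring 5 were higher and 0 lower, with a median of 0.14. *Mthfs*, which returns 5-formyl folate to the cycle, was at 1.43, 1.69, 1.84, 1.48 and 1.90 in HH and at 1.03 to 1.38 in LH, without overlap, a difference of -0.47. *Shmt1*, which passes the carbon of serine to folate, was higher by 0.34. Another of its probes differed by 0.74 and was called in the fit of only the HH and LH mice. Of 22 genes of the methionine cycle and transsulfuration, 0 were higher and 1 was lower, and without HH3 1 was higher and 2 were lower. Zinc transporters and metallothioneins had 3 of 26 higher and 1 lower, and 5 and 1 without HH3. With slide as a term 7 were higher and 1 lower, against 1391 and 1816 of all 18433 named genes. *Slc39a7*, a zinc exporter of the ER and Golgi, was higher by 0.45. *Slc39a6*, a zinc importer, was lower without overlap at a difference of -0.34.

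Genes of cholesterol synthesis were higher. Of 24 genes, 10 were higher and 0 lower, with a median of 0.31, and without HH3 9 and 0. *Msmo1*, a sterol oxidase, was at -1.39, -1.14, -1.23, -0.97 and -1.26 in HH and at -1.03 to 0.35 in LH, with a difference of 0.82, and HH4 lay within the LH range. *Fdft1*, squalene synthase, was at -0.67 to -0.03 in HH and -0.01 to 0.85 in LH. *Srebf2*, the regulator of the pathway, differed by 0.34, and for both genes 1 of 2 probes was higher. *Npc1*, which moves cholesterol out of lysosomes, differed by 0.63 without overlap.

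Transport and detoxification genes held several of the clearest separations. Of 28 genes of bile acid synthesis and transport, 5 were higher and 1 lower, with a median of 0.13. Without HH3 4 were higher and 1 lower, with a median of 0.09. *Slc10a1*, the carrier that takes bile acids up from blood, was at 2.15, 2.18, 1.71, 1.87 and 1.98 in HH and at 2.56 to 3.06 in LH, with a median of 2.78. The difference was 0.83 (1.78-fold) with a standard error of 0.17 and a limma adjusted p of 0.163. *Cyp27a1*, an enzyme of bile acid synthesis, differed by 0.48, and *Slc51b*, a subunit of the carrier that returns bile acids to blood, by -0.48, both without overlap. Among 52 P450 genes and regulators 9 were higher and 4 lower, and 7 and 4 without HH3. With slide as a term 14 were higher and 3 lower, against 1391 and 1816 of all 18433 named genes. *Cyp2c54* was at 2.47, 2.64, 0.34, 2.16 and 2.03 in HH and at 3.02 to 3.85 in LH. HH3 was the lowest mouse, and the difference of 1.33 was 0.93 without it. *Cyp2c29* differed by 0.70. Of 33 glucuronosyl and sulfotransferase genes 9 were higher and 0 lower (8 and 3 without HH3), and *Ugt1a1*, which conjugates bilirubin, was at 1.85, 1.93, 1.47, 0.77 and 1.17 in HH and at 2.00 to 2.76 in LH, a difference of 0.95.

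Over all named genes, the lowest p among genes higher in LH was that of *Acnat1*, which conjugates fatty acids to amino acids. It was at 1.12, 1.09, 1.15, 1.04 and 1.19 in HH and at 1.36 to 1.74 in LH, a difference of 0.45 with a standard error of 0.08. *Hgsnat*, a lysosomal enzyme, *Tfr2*, the second transferrin receptor, and *Pdzk1*, a scaffold of membrane carriers, differed by 0.43, 0.47 and 0.61, all without overlap. *Klf15*, a transcription factor of amino acid and glucose metabolism, differed by 0.51, and LH was above HH on 5 of 6 slides. On the other side, *Dph3*, of diphthamide synthesis, differed by -0.66, but 1 of its 3 probes was lower. The largest difference without overlap was that of *Pakap*, at -0.15, -0.67, -0.65, -1.08 and -0.96 in HH and at -3.01 to -1.32 in LH, and all 5 probes were lower, by differences of -1.38 to -0.03. *Ntrk2*, a neurotrophin receptor, differed by -1.27, or by -0.82 without HH3, which was the highest mouse at 2.72. Only 1 of its 2 probes was lower, and the other differed by 0.01.

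Lymphocyte markers were lower in LH, with smaller counts for the neutrophil and erythroid lists. Of 18 lymphocyte markers 9 were lower and 0 higher, with a median of -0.27, and without HH3 8 were lower, while without LH6 5 were. Their summed Cy3 signal was 5015 to 7973 in HH and 3532 to 5636 in LH. *Cd52* was at -0.16, -0.23, 1.04, 0.20 and 0.45 in HH and at -0.87 to -0.08 in LH. Of 15 neutrophil and monocyte markers 5 were lower and 1 higher, with a median of -0.07, and without HH3 2 were lower and 1 higher. *S100a8*, a calcium-binding protein of neutrophils and monocytes, was at 0.62, -0.28, 1.23, 0.49 and 0.36 in HH and at -0.96 to -0.38 in LH. The groups did not overlap, and the difference of -1.28 was -1.09 without HH3. *S100a9*, its partner, differed by -1.45, with HH2 at -0.47 inside the LH range. Of 11 erythroid markers 3 were lower and 1 higher, with a median of -0.16, and without HH3 4 and 1. The erythroid genes *Hba-a1* and *Hbb-bt* were lower by a difference of -0.49 and -0.63. Of 17 macrophage markers 3 were lower and 0 higher, and without HH3 1 was lower. *Marco*, a scavenger receptor of macrophages, differed by -1.08, or -0.83 without HH3. Of 25 cell cycle genes 7 were lower and 1 higher, and 1 and 0 without HH3. The part of blood or immune cells in the other results was not tested.

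Of 35 genes of fatty acid oxidation and PPAR alpha, 4 were higher and 3 lower, with a median of 0.23. Without HH3 7 were higher and 1 lower. With slide as a term 8 were higher and 3 lower, against 1391 and 1816 of all 18433 named genes. *Vnn1*, a pantetheinase and target of this receptor, was at -0.09, 0.90, 0.43, -0.01 and 0.50 in HH and at 0.56 to 2.12 in LH, a difference of 0.83, with HH2 inside the LH range. *Bdh1*, of ketone body synthesis, differed by 0.65. Of 12 genes of the glucocorticoid response 5 were higher and 0 lower, and 2 without HH3. *Fkbp5*, a cochaperone of the glucocorticoid receptor, was at -1.38, -1.76, -1.11, -1.48 and -1.33 in HH and at -1.35 to -0.05 in LH, a difference of 0.63. Of 21 genes of the p53 and DNA damage response 0 were higher and 4 lower, and 0 and 3 without HH3. *Gadd45g*, a stress-inducible gene, was at -1.52, -1.41, -1.52, -1.59 and -0.96 in HH and at -2.97 to -1.66 in LH, without overlap, and its difference was -0.90. For *Cdkn1a*, an inhibitor of the cell cycle, the difference of -0.65 was -0.35 without HH3. Proteasome genes numbered 2 higher and 2 lower of 39 (4 and 2 without HH3), and genes of the interferon response 1 and 2 of 33 (3 and 2 without HH3).

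The same dam diets were also compared in offspring on diet L after weaning (LL minus HL), in mice that HH and LH do not share. The difference between both contrasts was called for 0 of 41171 probes (0%), with a lowest limma adjusted p of 0.287 and with 4663 probes at an unadjusted p under 0.05. Side by side, LH minus HH and LL minus HL were 1.36 and -0.08 for *Hyou1*, -0.64 and -0.01 for *Ndufb4*, -0.60 and -0.04 for *Gpx4*, 0.83 and 0.04 for *Slc10a1*, and -1.28 and -0.03 for *S100a8*. These genes were named for their LH minus HH values, so a smaller second value could follow from that choice. Other named genes varied. The values were 0.53 and 0.23 for *Pdia6*, -1.27 and -0.48 for *Ntrk2*, 0.73 and -0.20 for *Arcn1*, and 1.04 and -0.22 for *Klkb1*. These values differ in size, but the difference itself did not pass the threshold for any of these genes.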

How the data were processed

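Liver RNA of 5 HH, 6 LH, 6 HL and 6 LL mice was measured on 24 Agilent 2-colour arrays, 4 per slide on 6 slides, each slide with 1 array of each group. The authors deposited, per array, the median intensity of each spot and its local background in both channels, read with Feature Extraction 10.10.1.1 per the file headers, and the processed intensity. The authors' own log2 values, deposited for all arrays together and with the reference as the numerator, were normalized by global loess with limma in R 3.0.2. With the sign turned they matched loess without background correction (r of at least 0.9997). The 24 columns of colon arrays were not used. The reference is described as pooled intestinal and liver RNA by the methods and otherwise by the series' design text. No dyes were swapped.

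Background was corrected by normexp (offset 50) after local backgrounds over 2 times the array's median, or above their spot by more than it, were set to that median (at most 36 spots per array and channel). Ratios were normalized by global loess. Control spots had weight 0, flagged spots were left out, and spots of a probe and the arrays of 1 mouse were averaged. The fit was limma 3.58.1 (lmFit, eBayes) in R 4.3.3 on 4 group means, with Benjamini-Hochberg adjustment over 41171 probes. Probes were named by RefSeq accession (27050 of 41174). The number of arrays limits the precision. The fit was tested on simulated data.

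The members, the 64 gene lists and the tests were chosen with earlier results of these data known. Named genes had a probe well above background in at least 3 mice of each group and were taken from the 2 or 3 lowest p of each list (3 where 20 or more members were tested), the 10 lowest p in each direction, and the 5 largest differences over 1 without overlap in each direction. Exceptions are named where they occur or, for *Trem2*, *Hsd3b5*, *Gpx1*, *Selenop* and *Txnrd1*, were chosen after their values were seen. Of the 177 genes so named, those described were picked by role with their values known, and the others are not reported here.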

Additional observations from a re-analysis of the deposited data

Results flagged for a closer look

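For 82 named genes, the mouse at either end of each group was compared with its nearest neighbour by Dixon's ratio, and 14 of 164 groups had a mouse that stood off, 2 of them through HH3; chance gives about 1 in 20 groups. In HH, HH3 was at 0.6154 for *Pdia5* (nearest 0.1556) and at 0.338 for *Cyp2c54* (nearest 2.028), and HH2 was at 2.095 for *Lipc* (nearest 1.611) and at 0.1163 for *Hbb-bt* (nearest 0.7117). In LH, LH1 was at 0.3836 for *Canx* (nearest -0.09174), at 1.685 for *Hgsnat* (nearest 1.419) and at -3.469 for *Mki67* (nearest -3.852). LH2 was at -0.3826 for *S100a8* (nearest -0.7452), and LH3 was at 1.336 for *Serpinf2* (nearest 1.587) and at 1.337 for *Sepsecs* (nearest 0.8447). LH4 was at -0.6991 for *Arcn1* (nearest -0.1513) and at 0.3045 for *Mrps17* (nearest 0.378), and LH5 was at 2.514 for *Npc1* (nearest 2.045) and at 3.847 for *Cyp2c54* (nearest 3.317).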

How the results depend on the processing

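The count of 0 called probes was the same under 17 alternatives and with each mouse left out (0 to 0). It was 6 with the arrays of HH3 counted as 2 mice, 17 with only the HH and LH mice in the fit, and 2 with array weights. With array weights 8297 probes had an unadjusted p under 0.05, and 19 probes were called for the difference from LL minus HL; the cause was not tested. With 1 mouse left out, 3587 (without LH5) to 5994 (without LH1) probes had an unadjusted p under 0.05. Slide as a fixed term gave 6097 such probes and 0 calls. *Grpel1* turned from -0.27 to 0.032 with the mean of all its probes; the other genes examined kept their direction. Aquantile leaves the ratios as they are and so changed nothing. No paired analysis was possible because the titles give HH and LH no shared replicate numbers (those used here follow accession order) and no shared animals or litters; slide, which holds an array of each group, was the one block that could be fitted, as above. The medians of the 17 lists examined kept their sign under 19 alternatives, except those of selenoproteins and folate genes. A kept sign is not always a difference from all genes. With median centring, mitochondrial ribosomal proteins and mitochondrial import were at -0.03, and the median of all named genes was also -0.03. With median centring in place of loess, 14 genes of the unfolded protein response and 17 of COPII and Golgi transport were higher. Over all 41171 probes, 2931 were higher in that setting, against 2397 with loess. Protein length was not examined, since no protein table was at hand; by gene span, chosen after seeing the data, the 4 equal classes had medians between -0.02 and -0.01, with 4.08% of genes higher and 8.79% lower in the shortest class and 6.51% and 6.49% in the longest, and in the class of 4 with the lowest intensity 1.78% of genes were higher and 1.3% lower at an unadjusted p under 0.05, against 9.31% and 10.3% in the highest.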
